A study of Mus musculus with 8 samples.

Results

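The 35 genes described here are characteristic of the choroid plexus epithelium, and were followed through bulk RNAseq and snRNAseq of dissected mouse hippocampus. They were taken as a list of names, drawn up with earlier results of these data known, and all 35 were found among the 46517 genes of the bulk files and the 24051 genes of the snRNAseq files. By role they comprised 6 transport genes and secreted carriers, 8 secreted or hormone-related genes, 7 genes of ion and water transport, 2 receptors, 3 transcription factors and antisense transcripts, 7 junction, cytoskeleton and matrix genes, and 2 other cytoplasmic genes.

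The choroid plexus is a sheet of ciliated epithelium folded around a vascular core inside the brain ventricles, where it secretes cerebrospinal fluid (CSF) and forms the blood-CSF barrier. Its cells carry ions and water from blood to ventricle, are sealed by claudin-containing tight junctions, and release carrier proteins such as transthyretin. The plexus of the lateral ventricle lies next to the hippocampus along the choroid fissure, without being part of the hippocampal tissue itself.

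Mutant mice were *Wls fl/-;Gfap-Cre*, with a floxed and a null allele of *Wls* (*Wntless*, needed for the secretion of Wnt proteins), and control mice were *Wls fl/+;Gfap-Cre*, with a floxed and a wild-type allele. Both genotypes therefore carried Cre, driven by *Gfap* regulatory sequence and active in a subset of neural progenitors, and all mice were 12 weeks old and described as male. Each library came from the hippocampi of a single mouse, with 2 mutant and 2 control libraries in bulk and again in snRNAseq. Bulk libraries held 59786165 and 79576196 expected counts (mutants 1 and 2) and 56002381 and 66684515 (controls 1 and 2), and snRNAseq libraries held 5304, 10460, 6469 and 7192 nuclei in the same order.

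Some bulk libraries went against the description of the mice as male. *Xist*, the RNA that coats the inactive X chromosome, measured 1.44 and 231 counts scaled to library size (CPM) in mutants 1 and 2 and 1.04 and 518 CPM in controls 1 and 2. The Y-linked gene *Ddx3y* measured 54.2, 0.354, 58.2 and 0.343 CPM in that order. Mutant 2 and control 2 were thus high for *Xist* and low for *Ddx3y*, and the remaining bulk libraries were the reverse. In snRNAseq all 4 libraries had *Ddx3y* at 30.6 CPM or more and *Xist* at 3.64 CPM or less, so a bulk and a snRNAseq library with the same name here may come from different mice. Each genotype had a bulk library of either kind, so the members were also compared within them: the ratio of mutant 1 to control 1 had a median of 2.51 over the 35 genes (0.511 to 7.51, above 1 for 32), and that of mutant 2 to control 2 had a median of 18.4 over the 34 genes above 0 in control 2 (1.27 to 156, above 1 for all 34). *Otx2os1* was at 0 in control 2 and above 0 in mutant 2.

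The first question was how high these genes stood in each bulk library. Summed over the 35 genes, the level was 1684 and 12211 TPM (a library-scaled unit per transcript length) in mutants 1 and 2, and 539.7 and 389 TPM in controls 1 and 2. Both mutant libraries lay above both controls, and mutant 2 stood far above the rest, with 1.22% of its TPM in these genes against 0.168%, 0.0540% and 0.0389%. A few transcripts made up most of these sums. *Ttr*, the carrier of thyroxine and of retinol-binding protein in CSF, supplied 63.1% and 71.7% of the member TPM in the mutants and 28.6% and 14.9% in the controls. *Ttr* and *Enpp2* together made up 80.9%, 87.4%, 53.1% and 38.9%. The median member was modest, at 6.77, 31.6, 2.84 and 1.92 TPM. The sums include members that snRNAseq (below) also read outside choroid plexus nuclei, so they do not measure choroid plexus RNA alone. In control 2, *Enpp2* was at 93.3 TPM, *Igfbp2* at 44.2 and *Slc29a4* at 33.9. *Igf2*, nearly absent from snRNAseq, was at 53.1 TPM there. In bulk tissue fewer cells of a type and less RNA per cell cannot be told apart.

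**Figure D1:**
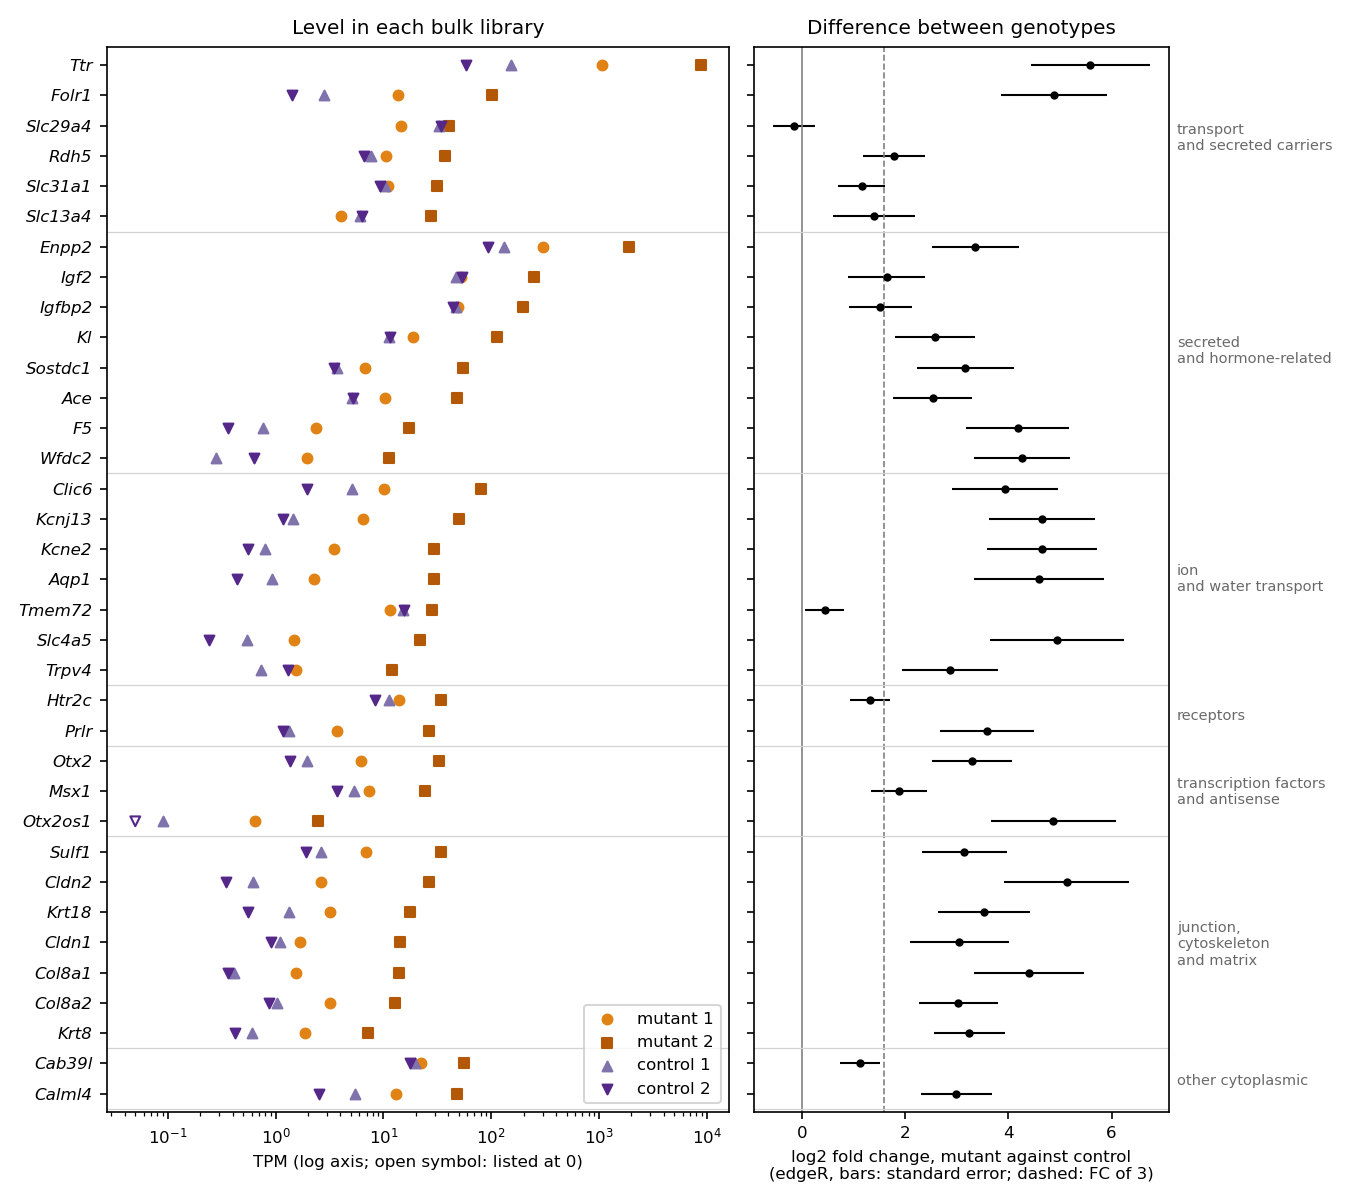
The 35 genes in bulk RNAseq, grouped by role: left, TPM in each of the 4 libraries on a log axis, with an open symbol where a gene was listed at 0. Right, log2 fold change of mutant against control with its standard error and a dashed line at FC of 3. Mutant 2 is the rightmost symbol for every gene, and 34 of the 35 fold changes lie above 0.

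All 35 genes passed the filter on low counts and were tested among 20687 genes with edgeR's quasi-likelihood test. At FC >3 and a Benjamini-Hochberg false discovery rate (FDR) below 0.05, 0 of 35 were called higher in the mutant (0.0193% of all genes tested were) and 0 were called lower (0.198%). At an unadjusted p below 0.05 with FC >3, 27 of the 35 were higher (0.827%). DESeq2 called 19 higher (0.334%), and edgeR with no filter on low counts called 28 (0.633%). Both mutant libraries lay above both controls for 31 of 35 genes (25.8%), and both lay below for 0 (25.4%). The log2 fold change had a median of 3.16 over the members and 0.011 over all genes tested, and was positive for 34 of 35 members (51.9%). The study picked choroid plexus transcripts on these same libraries, so the direction is not independent evidence.

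The size of the difference depended on which mutant was read. Mutant 2 exceeded mutant 1 by more than 2-fold for 35 of 35 genes (3.61% of all genes), with a median ratio of 5.53 (2.23 to 12.6) where all genes had 0.999. Mutant 1 was nevertheless above both controls for 31 of the 35 (41.4%). Without mutant 1, edgeR called 33 of 35 higher (1.15% of genes tested), without mutant 2 it called 10 (0.353%), and without either control it called 0. The median log2 fold change was 1.53 without mutant 2. The controls differed less than the mutants. Their ratio, control 1 to control 2, had a median of 1.29 over the same 34 genes (0.641 to 2.83). All genes tested had a median of 1.00, and control 1 was above control 2 for 27 of 35 members (50.3% of all genes).

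Among transport genes and secreted carriers, *Ttr* had the largest difference. It measured 635 and 4963 CPM in mutants 1 and 2 and 84.8 and 31.8 CPM in controls 1 and 2, so the genotypes did not overlap, and the mutants differed from each other 7.82-fold. The log2 fold change was 5.59 (SE 1.16, edgeR FDR 0.103, DESeq2 adjusted p 0.000543). *Folr1*, the folate receptor that takes folate into CSF, measured 5.93 and 40.4 CPM in the mutants and 1.03 and 0.566 CPM in the controls. Its log2 fold change was 4.88 (SE 1.03, edgeR FDR 0.105). These were the carriers with the largest differences, and the rest of this group was smaller. The retinol dehydrogenase gene *Rdh5* (3.98, 14.8, 2.96 and 2.53 CPM in mutants 1 and 2 and controls 1 and 2) and the copper importer gene *Slc31a1* (20.9, 56.9, 18.4 and 16.7 CPM) kept the genotypes apart. The sulfate transporter gene *Slc13a4* (6.92, 44.7, 9.64 and 9.99 CPM) and the monoamine transporter gene *Slc29a4* (20.1, 50.5, 39.3 and 39.7 CPM) overlapped, with mutant 1 below both controls. *Slc29a4* was the member with a negative log2 fold change (-0.16, SE 0.405, edgeR FDR 0.878), and at 0.35 it was positive without mutant 1.

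Of the secreted and hormone-related genes, *Enpp2* was the most abundant. It encodes autotaxin, the enzyme that makes lysophosphatidic acid, and measured 466 and 2817 CPM in the mutants and 189 and 132 CPM in the controls. The mutants lay above the controls, with a log2 fold change of 3.36 (SE 0.845, edgeR FDR 0.138). *Kl*, which encodes the FGF23 co-receptor klotho, measured 49.1, 279, 27.3 and 27.8 CPM in mutants 1 and 2 and controls 1 and 2. *Sostdc1*, a secreted antagonist of BMP and Wnt signalling, measured 5.91, 45.6, 2.96 and 2.81 CPM. In both, mutant 1 was moderately above the controls and mutant 2 far above. The coagulation factor V gene *F5* (9.01, 61.8, 2.71 and 1.25 CPM) and the whey acidic protein family gene *Wfdc2* (0.799, 4.17, 0.106 and 0.149 CPM) had wider separation, with log2 fold changes of 4.18 and 4.26. *Igf2*, the growth factor gene, did not separate the genotypes, at 80.4, 445, 77.3 and 91.1 CPM. *Igfbp2*, which encodes a binding protein of that growth factor, measured 29.5, 120.0, 26.4 and 25.8 CPM, with mutant 1 just above the controls. The group held a median log2 fold change of 2.87 (1.52 to 4.26), and 7 of its 8 genes kept both mutants above both controls.

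*Ace* encodes the enzyme that makes angiotensin II, and measured 16.7, 90.2, 8.93 and 9.58 CPM in mutants 1 and 2 and controls 1 and 2. It is shown with *Otx2*, a homeodomain transcription factor gene required for choroid plexus development, because their RefSeq promoters hold the core recognised by OTX proteins. The core was searched as TAATCC on the given strand and as its reverse complement GGATTA, in windows from 250 bases before to 50 bases after each start (GRCm38.p6). Of the 35 members 28 had such windows, and 3 of them (10.7%, *Otx2*, *Ace* and *Igf2*) held the core, beside 8.14% of 27025 genes with a window. The 250 bases before the start are printed 5′ to 3′ on the gene's strand, with the core in capitals. The *Ace* window, at 1 of its 2 RefSeq starts, is chr11:105967698-105967947 (plus strand, core 27 bases before the start), and the *Otx2* window, at 1 of its 4 RefSeq starts, is chr14:48665110-48665359 (minus strand, core 211 bases before the start).
Ace: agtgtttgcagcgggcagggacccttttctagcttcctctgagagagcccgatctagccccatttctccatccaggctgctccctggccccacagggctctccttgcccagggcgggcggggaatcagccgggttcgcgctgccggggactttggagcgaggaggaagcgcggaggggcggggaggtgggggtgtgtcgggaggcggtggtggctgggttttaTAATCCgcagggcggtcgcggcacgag
Otx2: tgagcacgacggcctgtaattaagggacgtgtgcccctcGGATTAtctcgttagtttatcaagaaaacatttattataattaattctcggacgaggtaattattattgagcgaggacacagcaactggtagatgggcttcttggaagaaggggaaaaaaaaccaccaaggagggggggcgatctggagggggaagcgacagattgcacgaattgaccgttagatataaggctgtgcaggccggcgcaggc

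*Otx2* (chr14:48657677-48673819, minus strand) measured 5.20 and 23.7 CPM in the mutants and 1.91 and 1.06 CPM in the controls. The genotypes did not overlap, and the log2 fold change was 3.29 (SE 0.780, edgeR FDR 0.125). *Otx2os1*, a long noncoding RNA gene on the opposite strand (chr14:48668708-48870683), overlaps *Otx2* over part of its length. It was close to 0 in the controls, at 0.221, 0.830, 0.035 and 0 CPM in mutants 1 and 2 and controls 1 and 2. Pooled over libraries it had 79 counts in mutants and 2 in controls, a depth-scaled ratio of 34.8 (counting interval 9.31 to 292). The kit kept strand, but the strand setting of the read counting is not given in the sources used here, so it is uncertain how reads from the overlap were assigned. The homeobox gene *Msx1* measured 7.17, 22.2, 4.77 and 3.26 CPM, with both mutants above both controls.

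Ion and water transport genes had the largest differences as a group, with a median log2 fold change of 4.59 (0.44 to 4.94) and the genotypes apart in 6 of 7. *Slc4a5*, a sodium bicarbonate cotransporter gene, measured 3.86, 48.7, 1.17 and 0.566 CPM in mutants 1 and 2 and controls 1 and 2. Its log2 fold change was 4.94 (SE 1.29), and its 12.6-fold gap between the mutants was the widest of any member. The water channel gene *Aqp1* (3.01, 36.7, 1.13 and 0.536 CPM) and the potassium channel genes *Kcnj13* (4.03, 27.9, 0.833 and 0.447 CPM) and *Kcne2* (2.87, 22.9, 0.620 and 0.417 CPM) followed the same order of libraries. The chloride channel family gene *Clic6* (19.3, 145, 7.46 and 3.41 CPM) and the cation channel gene *Trpv4* (2.53, 18.3, 1.12 and 1.74 CPM) also kept the genotypes apart. *Tmem72*, a transmembrane protein gene, was the exception, at 101, 238, 123 and 127 CPM, with mutant 1 below both controls. Its log2 fold change was 0.44 (SE 0.380, edgeR FDR 0.602).

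Receptor genes differed in size. *Prlr*, the prolactin receptor gene, measured 16.5, 116, 5.79 and 5.24 CPM in mutants 1 and 2 and controls 1 and 2, a log2 fold change of 3.59 (SE 0.916). *Htr2c* (chrX:146962513-147197277, plus strand), a serotonin receptor gene known for high expression in choroid plexus and in several neuron classes, measured 33.5, 74.5, 24.8 and 18.5 CPM. The mutants lay above the controls for both genes, and the *Htr2c* log2 fold change was 1.32 (SE 0.387, edgeR FDR 0.175).

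Junction, cytoskeleton and matrix genes kept both mutants above both controls for all 7 members, with log2 fold changes of 3.03 to 5.13. *Cldn2*, the claudin of cation- and water-permeable tight junctions, measured 4.08 and 37.0 CPM in the mutants and 0.886 and 0.313 CPM in the controls, a log2 fold change of 5.13 (SE 1.22). *Cldn1*, a sealing claudin gene, measured 2.79, 22.2, 1.68 and 1.35 CPM. The claudins thus shared a direction, with mutant 1 nearer to the controls for *Cldn1*. The simple-epithelium keratin genes *Krt8* (1.70, 6.17, 0.496 and 0.343 CPM) and *Krt18* (2.23, 11.5, 0.850 and 0.357 CPM) pair in intermediate filaments, and both separated the genotypes. The type VIII collagen genes *Col8a1* (4.01, 34.7, 0.992 and 0.849 CPM) and *Col8a2* (5.29, 26.2, 2.11 and 1.76 CPM) and the heparan sulfate sulfatase gene *Sulf1* (12.2, 66.9, 5.42 and 3.58 CPM) did as well. Of the remaining genes, the calmodulin-like gene *Calml4* measured 5.39, 18.6, 2.09 and 0.953 CPM, and *Cab39l*, which encodes an adaptor of the LKB1 kinase complex, measured 34.6, 80.7, 28.0 and 25.1 CPM.

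Where the members were transcribed was read from snRNAseq, in which each nucleus carried a cell type assigned by the authors. Nuclei labelled choroid plexus numbered 184 of 10460 in mutant 2 (1.76%, exact binomial interval 1.52 to 2.03%) and 9 of 6469 in control 1 (0.139%, 0.0636 to 0.264%). There were 0 of 5304 in mutant 1, which allows a share of up to 0.0566%, and 0 of 7192 in control 2, which allows up to 0.0417%. The genotypes overlapped (exact two-sided permutation test over libraries, p = 1.0, where the smallest p that 2 against 2 can give is 0.33). Intervals and limits cover counting error only. None of the choroid plexus barcodes occurred in another library, and 8 to 21 barcodes were shared between any 2 libraries.

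The label was compared with markers in mutant 2, the library with enough nuclei to ask. Of the 34 members with a UMI there, 32 had their highest CPM in choroid plexus nuclei, with a median ratio of 8.0 to the next cell type. The members are a choroid plexus list drawn up with earlier results of these data known, so this is not independent support for the label. The share of all genes highest in these nuclei was not computed. *Otx2* had 379 CPM and a UMI in 76.6% of choroid plexus nuclei (34.2% after thinning to 1000 UMIs), against 0.341 CPM and 0.299% of CA1 nuclei (median depths 3878 and 9098 UMIs). *Ttr* had a UMI in all choroid plexus nuclei but also in 29.7% of CA1 nuclei. Several defining markers of other cells were low in the choroid plexus nuclei. *Aqp4* of astrocytes was at 9.39 CPM, *Mog* of oligodendrocytes at 15.7, *Csf1r* of microglia at 5.22, *Flt1* of endothelium at 1.04 and *Slc6a13* of meninges at 6.26. *Erbb4*, listed as an inhibitory neuron marker, was at 1372 CPM there against 10265 CPM in the inhibtory neurons 12 cluster (the authors' spelling). *Cx3cr1* of microglia was at 350 CPM in choroid plexus nuclei against 1719 CPM in microglia. Of the excitatory neuron markers, *Slc17a7* was at 99.1 CPM against 328.6 CPM in excitatory neurons 8. *Nrgn* was at 78.3 against 285 CPM (type EC), and *Neurod2* at 17.7 against 146 CPM (CA2). Of the dentate granule cell markers, *Dsp* was at 12.5 against 25.7 CPM in those cells, and *Prox1* at 8.35 against 333 CPM.

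**Figure D2:**
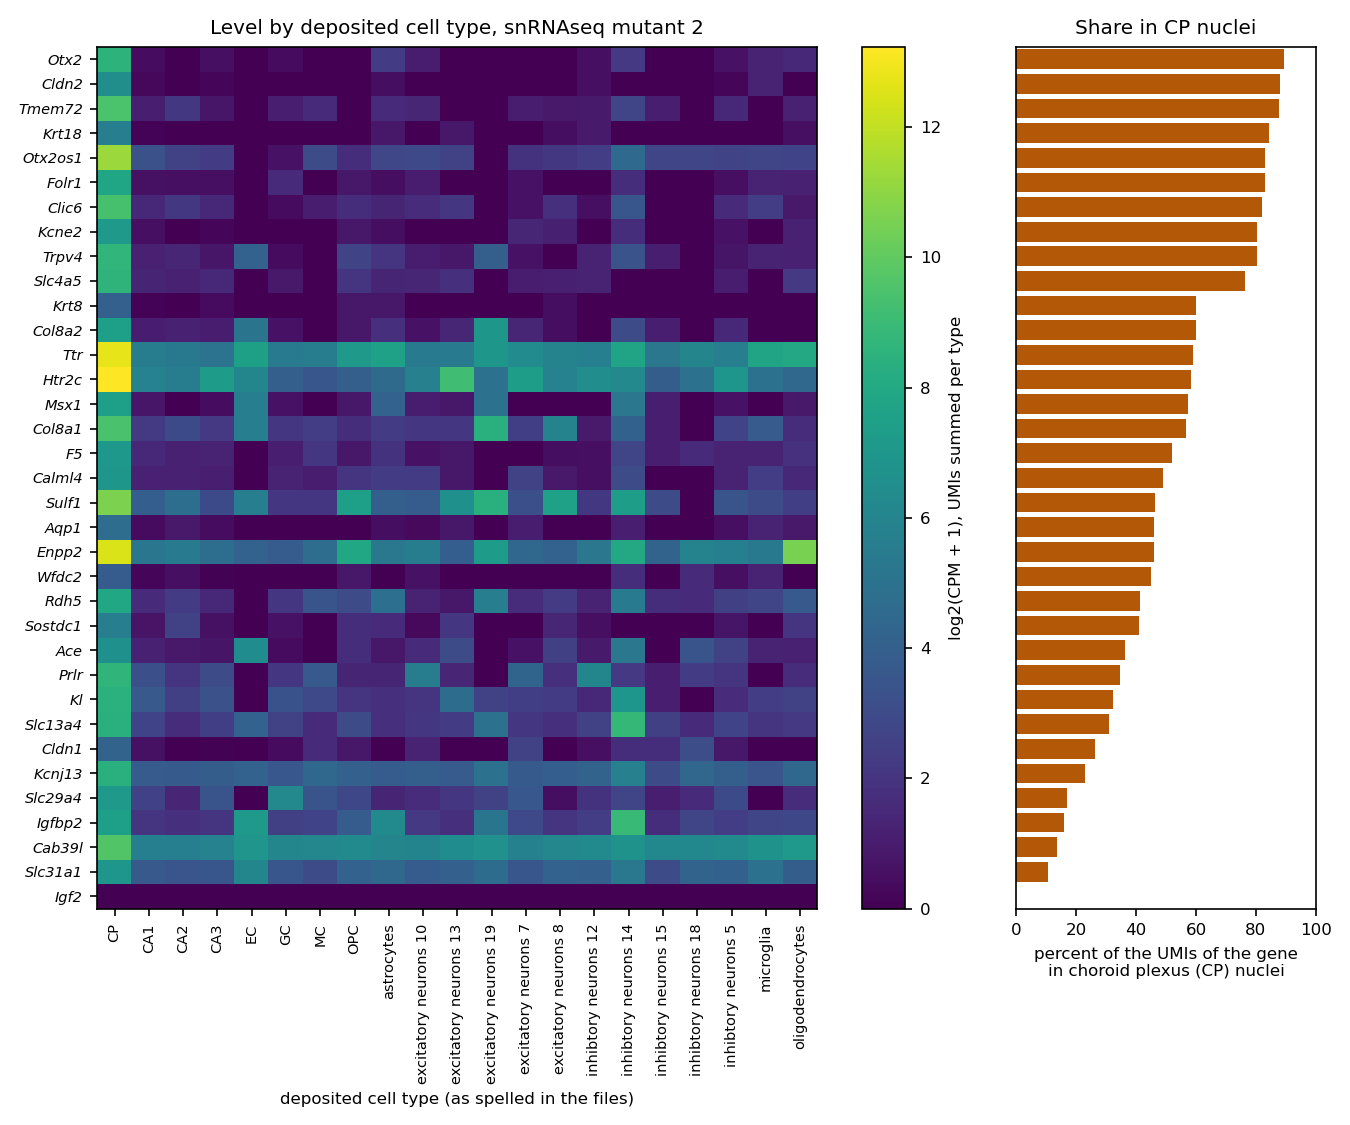
Members in snRNAseq of mutant 2: left, level in each deposited cell type on a colour scale of log2(CPM + 1), and right, the percent of each gene's UMIs that lay in choroid plexus nuclei. The choroid plexus (CP) column is the strongest for 32 of the 34 genes with a UMI, and *Htr2c*, *Enpp2* and *Ttr* have the highest values in it.

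The genes differed in how exclusively they marked these nuclei. Choroid plexus nuclei held 1.25% of all UMIs of mutant 2 but a median of 50.4% of a member's UMIs (73.0% once the CPM of CA1 nuclei was subtracted as a background). The share was highest for *Otx2* (89.2%), *Cldn2* (88.0%), *Tmem72* (87.5%), *Krt18* (84.2%), *Otx2os1* (83.0%) and *Folr1* (83.0%), and lowest for *Slc31a1* (10.5%), *Cab39l* (13.6%), *Igfbp2* (16.0%) and *Slc29a4* (17.0%). Several members were read elsewhere too. *Enpp2* had 1520 CPM in oligodendrocytes, *Htr2c* had 568 CPM in excitatory neurons 13, and *Slc29a4* had 73.6 CPM in DGCs (dentate granule cells). *Igfbp2* and *Slc13a4* were highest outside the plexus, at 486 and 440 CPM in the cluster labelled inhibtory neurons 14 against 177 and 336 CPM in choroid plexus nuclei. That label went against its markers in mutant 2: *Gad1* and *Gad2* of inhibitory neurons were at 27.0 and 25.8 CPM, against 441 and 659.6 CPM in inhibtory neurons 12, while the meningeal *Slc6a13* was at 537 CPM and the endothelial *Flt1* at 897 CPM.

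**Figure D3:**
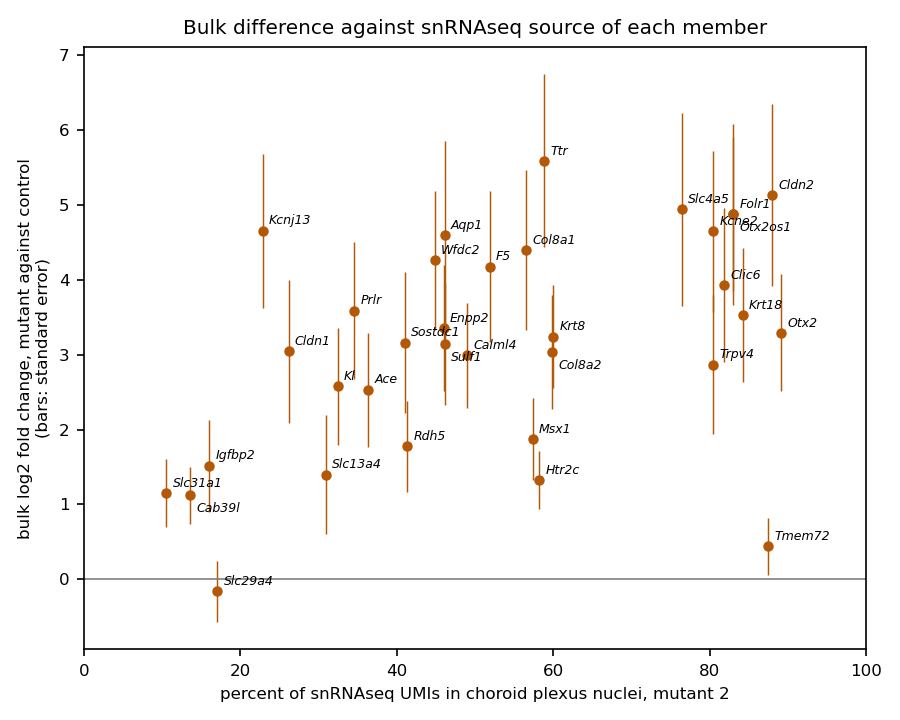
Each point is a member: the percent of its snRNAseq UMIs in choroid plexus nuclei of mutant 2 (horizontal) against its bulk log2 fold change of mutant against control (vertical). The 17 members above 50% have a median log2 fold change of 3.93 and the other 17 have 2.99.

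Across the 34 genes, the share of UMIs in choroid plexus nuclei and the bulk log2 fold change had a Pearson r of 0.47 and a Spearman rho of 0.47, as a description over genes that share these libraries and are not independent replicates. The exception at high share was *Tmem72*, with 87.5% of its UMIs in choroid plexus nuclei and a bulk log2 fold change of 0.44. In bulk it measured 127 CPM in control 2. The snRNAseq library of that name, which may be another mouse, held 33 UMIs of it and no choroid plexus nuclei. *Igf2* had no UMI in mutant 2 and so was not among the 34 genes. It had 77.3 to 445 CPM in the bulk libraries. The whole snRNAseq libraries of mutants 1 and 2 and controls 1 and 2 held 2, 0, 3 and 1 UMIs of it. The annotation places *Gm49394* and *Mir483* over *Igf2* on its strand and *Igf2os* on the other.

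Choroid plexus nuclei of the genotypes could be set side by side only as mutant 2 against control 1, a single library each and 9 nuclei in the latter, so no test was possible and the difference has no replicate check. *Ttr* was the outstanding difference. It had 6634 UMIs and 6923 CPM (exact Poisson interval 6757 to 7091) in mutant 2, and 5065 UMIs and 84987 CPM (82663 to 87361) in control 1, 12.3-fold lower in the mutant library. All members together made up 3.36% of the UMIs in mutant 2 nuclei and 12.1% in control 1 nuclei, and without *Ttr* 2.67% and 3.62%. Per nucleus, the share of all members ranged from 0.626% to 10.2% in mutant 2 and from 3.63% to 16.8% in control 1. The Poisson intervals treat UMIs as independent and leave out this spread between nuclei, so they are too narrow.

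Other members were closer. *Htr2c* measured 9578 CPM (9383 to 9776) in mutant 2 and 10806 (9987 to 11674) in control 1, and *Sulf1* measured 1573 (1494 to 1654) and 1493 (1199 to 1838). Of 34 genes, 20 lay within 2-fold, 14 were lower in mutant 2 with intervals apart, and 3 were higher. The share of all genes with intervals apart in these nuclei was not computed, so these counts are not particular to the members. The higher ones were *Otx2* at 379 CPM (341 to 420) against 117 (47.2 to 242), *Otx2os1* at 2377 against 1762, and *Trpv4* at 412 against 201. The lower ones over 3-fold included *Cldn1* (17.7 against 134 CPM), *Sostdc1* (50.1 against 302 CPM) and *Kcne2* (138 against 469.8 CPM). These intervals do not cover differences between nuclei or between mice.

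**Figure D4:**
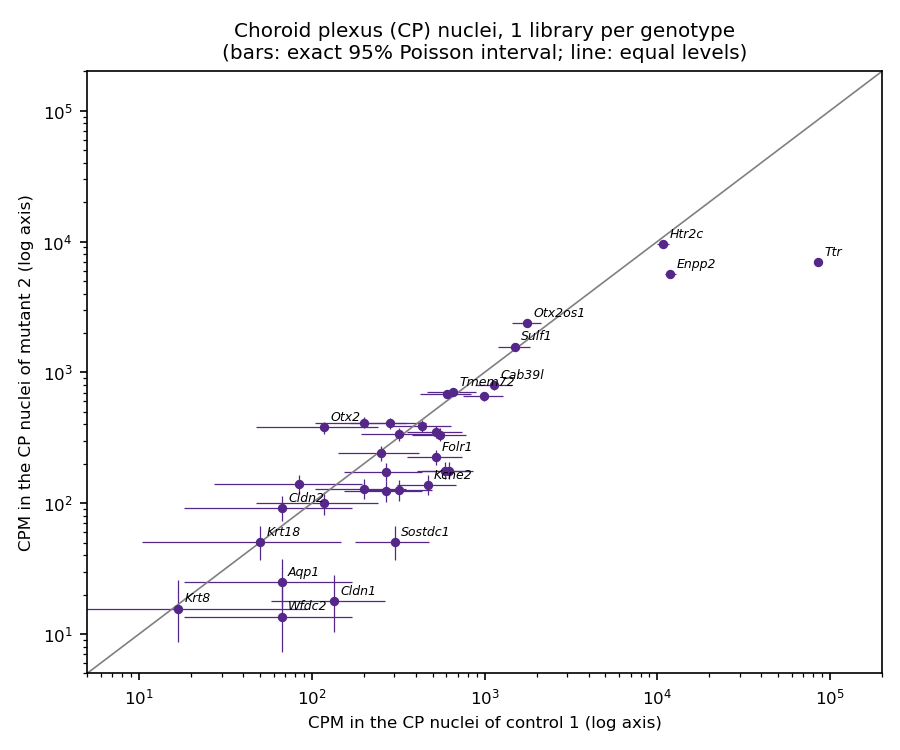
CPM of each member in choroid plexus nuclei of mutant 2 (184 nuclei, vertical) against control 1 (9 nuclei, horizontal), both on log axes, with exact Poisson intervals as bars and the diagonal marking equal levels. *Ttr* is farthest below the diagonal, 12.3-fold, and *Otx2* is above it. The bars leave out spread between nuclei and between mice.

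*Ttr* was also read outside the plexus, at levels that differed widely between libraries. Over the 18 types with at least 10 nuclei in every library, which leave out choroid plexus, its median was 1.00 and 54.7 CPM in mutants 1 and 2 and 26.0 and 6.23 CPM in controls 1 and 2. The highest type reached 5.26 CPM in mutant 1, 249 CPM (oligodendrocytes) in mutant 2, 121 CPM (microglia) in control 1 and 75.9 CPM in control 2. The libraries with choroid plexus nuclei, mutant 2 and control 1, were thus the higher of each genotype. In mutant 2, 58.9% of *Ttr* UMIs lay in choroid plexus nuclei, and in control 1 84.1% of 6024 UMIs lay in 9 nuclei. The part of free RNA in these values was not tested.

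**Figure D5:**
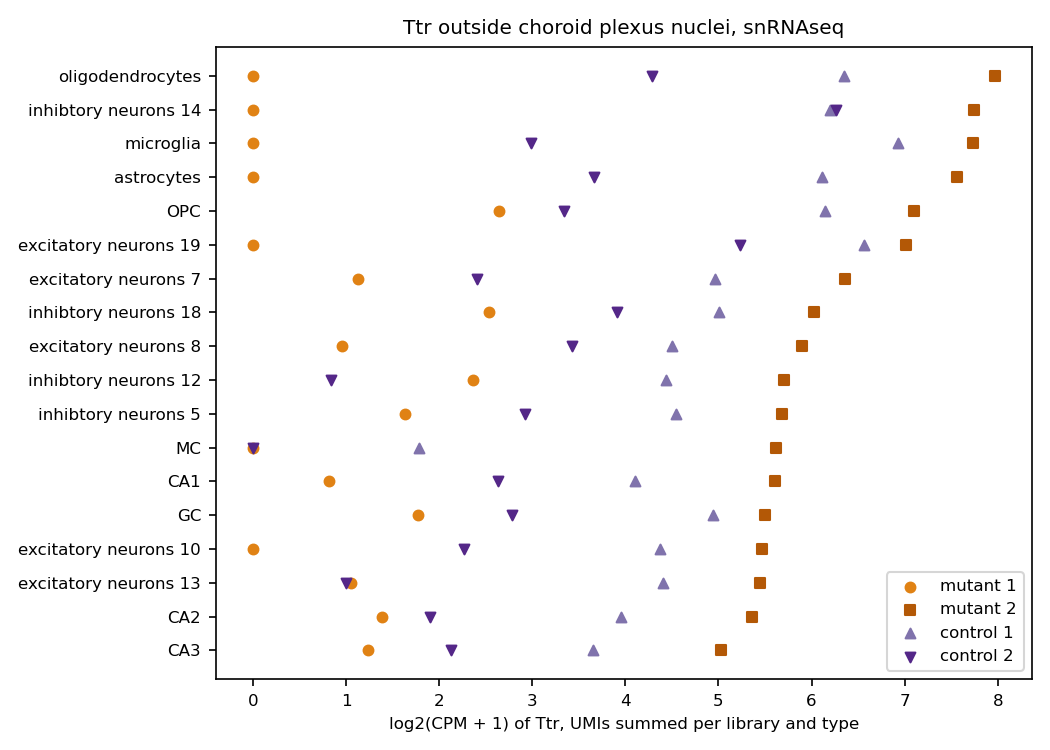
*Ttr* as log2(CPM + 1) in the 18 deposited cell types with at least 10 nuclei in every library, choroid plexus left out, with a symbol for each snRNAseq library. Mutant 2 is highest in all 18 (median 54.7 CPM), mutant 1 has the lowest median (1.00 CPM), and the controls have 26.0 and 6.23 CPM.

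With UMIs summed over all nuclei of a library, 31 of the 35 members passed the filter among 20575 genes. At FC >2 and FDR below 0.05, edgeR called 0 higher and 0 lower (0% and 0% of all genes). At an unadjusted p below 0.05 with FC >2, 5 members were higher (2.3%) and 1 was lower (1.28%). Both mutants lay above both controls for 7 of the 31 (24.5%). *Htr2c* measured 123 and 199.9 CPM in the mutants and 64.0 and 59.5 CPM in the controls, a log2 fold change of 1.39 (SE 0.244, edgeR FDR 0.177). *Sulf1* measured 28.0, 41.4, 12.6 and 11.5 CPM, and *Col8a1* measured 10.1, 14.7, 3.72 and 3.52 CPM, both with the mutants apart from the controls. With choroid plexus nuclei left out of every library, the log2 fold changes of *Htr2c*, *Sulf1* and *Col8a1* were 0.97, 1.22 and 1.39. *Slc29a4* was lower, at 4.66, 9.97, 19.5 and 24.2 CPM (log2 fold change -1.56, SE 0.361, edgeR FDR 0.203), and the same libraries had 90, 463, 2336 and 2007 DGC nuclei. Within DGCs it measured 57.4, 74.9, 54.0 and 76.6 CPM, and the genotypes overlapped. DESeq2 called *Htr2c*, *Sulf1* and *Col8a1* higher (0.583% of all genes) and *Slc29a4* lower (0.797%). *Ttr* did not follow the genotype, at 1.19, 143, 160.1 and 6.50 CPM.

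Within the cell types, 25 members gave 167 tests over 18 types with at least 10 nuclei in every library, and 2 were called (0.19% of all gene tests within types were). *Htr2c* in inhibtory neurons 12 measured 66.9, 91.7, 13.9 and 24.1 CPM in mutants 1 and 2 and controls 1 and 2. Both mutants were above both controls, with a log2 fold change of 2.01 (SE 0.297, edgeR FDR 0.019), where 0.0315% of genes tested in that type were called higher. Without mutant 2 it was 1.70 (edgeR FDR 0.0586). The *Htr2c* log2 fold change was positive in 12 of the 14 types where it was tested. It was negative in excitatory neurons 8 (-0.97) and in inhibtory neurons 5 (-0.097). *Ttr* in microglia measured 0, 240.3, 134 and 7.90 CPM, a log2 fold change of 2.32 (SE 0.490, edgeR FDR 0.0348; 0.0421% of genes called higher). The genotypes overlapped there, mutant 1 had 13 microglia, and the log2 fold change was -6.89 without mutant 2. *Igfbp2* in the cluster labelled inhibtory neurons 14, where *Gad1* was at 31.9 CPM or less and *Slc6a13* at 537 CPM or more in every library, measured 563.5, 531, 959 and 989 CPM, with the mutants below the controls and a log2 fold change of -0.83 (edgeR FDR 0.83).

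Other genes of the blood-CSF pathway and of neighbouring cell types were read in the same bulk fit, from lists chosen with earlier results of these data known. Of 20 further transport genes, 0 were called higher (0.0193% of all genes tested were) and 0 lower (0.198%), with a median log2 fold change of 0.36. Both mutants lay above both controls for 12 of the 20 (25.8% of all genes tested) and below both for 3 (25.4%). The sums of 3223 and 3403 TPM in the mutants and 3060 and 2899 TPM in the controls included the abundant genes *Atp1b1*, a sodium pump subunit gene, and *Car2*, a carbonic anhydrase gene, which many brain cells express. *Steap1*, a membrane protein gene, stood out at 0.782, 7.36, 0.248 and 0.045 CPM (log2 fold change 4.85, SE 1.32, edgeR FDR 0.155).

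Of 15 genes of ependyma and motile cilia, the ciliary dynein subunit gene *Dynlrb2* was called higher (0.0193% of all genes tested were). It measured 2.63 and 2.82 CPM in the mutants and 0.797 and 0.536 CPM in the controls (log2 fold change 2.04, SE 0.266, edgeR FDR 0.0456). The list's median was 1.13, and 14 of 15 genes had both mutants above both controls (25.8% of all genes tested had). *Foxj1*, the ciliogenesis factor gene, measured 16.2, 20.2, 9.69 and 6.91 CPM. Summed over the list, the level was 134 and 149 TPM in mutants 1 and 2 and 82.9 and 75.7 TPM in the controls, so the mutants were nearer to each other than for the 35 members. In mutant 2, 10 of the 15 genes had their highest CPM in choroid plexus nuclei, among them *Spag16* (1060 CPM, the highest of the list), *Dynlrb2* (35.5 against 2.15 in the next type) and *Foxj1* (15.7 against 3.58), and the 15 summed to 2482 CPM there. The ependymal markers *Tmem212* and *Rarres2* were at 0 and 1.04 CPM in these nuclei, and 3 of the 15 genes were at 0. The part of choroid plexus RNA in the bulk values of these genes was not tested.

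Of 10 meningeal fibroblast genes, 1 was called lower (0.198% of all genes tested were), the organic anion transporter gene *Slc22a6* (log2 fold change -1.83, edgeR FDR 0.0426). The list's median was -0.40. In 5 of the 10 both mutants lay below both controls (25.4% of all genes), and in 1 both lay above (25.8%). The summed TPM was 45.3 and 60.2 in the mutants and 59.3 and 66.0 in the controls. The most abundant of the 10 genes, the fibroblast proteoglycan gene *Dcn*, was higher in the mutants. It measured 24.3 and 23.1 CPM in the mutants and 17.7 and 17.6 CPM in the controls (log2 fold change 0.42). Of 8 DGC genes 6 were called lower (*Fam163b*, *Prox1*, *Plk5*, *C1ql2*, *Stxbp6* and *Dsp*), where 0.198% of all genes tested were. The summed TPM of the 8 was 104.8 and 99.4 in the mutants and 396 and 357 in the controls. Genes of endothelium and mural cells, oligodendrocytes, astrocytes, microglia and thalamus had 0 calls, with median log2 fold changes of 0.16, 0.32, 0.08, -0.055 and 0.14 in that order. The most abundant gene was *Rgs5* for endothelium and mural cells, *Mbp* for oligodendrocytes, *Aldoc* for astrocytes and *Calb2* for thalamus. The part of these cells in the members' values was not tested.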

How the data were processed

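Hippocampi of 2 mutant and 2 control mice were profiled per assay, with a library for each mouse. For bulk, the authors aligned reads to mm10 with RSEM 1.3.0 and Bowtie2 2.2.9 and deposited expected counts, TPM and FPKM (not used) per gene. The deposited matrix of normalized signal, expected counts divided by a size factor, entered an alternative only. For snRNAseq, the authors deposited UMI counts per nucleus from Cell Ranger 3.1.0 with a pre-mRNA index, and the assigned cell types. A deposited Size_Factor ratio was not used. No column of the authors' own comparisons was used.

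Expected counts were rounded, filtered with filterByExpr and scaled by TMM, and genotypes were compared with edgeR's quasi-likelihood test (edgeR 4.0.16, R 4.3.3) over all genes with Benjamini-Hochberg adjustment, at FC >3 in bulk and FC >2 in snRNAseq, FDR below 0.05. EBSeq and Monocle were not used here. UMIs were summed per library, and per library and type (at least 10 nuclei in every library), since the mouse and not the nucleus is the replicate. Doublets were not called. The step was tested on simulated counts: 100% of 200 genes changed 6-fold were recovered in bulk (20331 genes, 2 false calls). Of 200 changed 4-fold, 92.5% were recovered in the snRNAseq sums (20321 genes, 4 false calls) and 91.5% in CA1 (16464 genes, 6 false calls). The simulation gave the libraries of a genotype a common mean and the dispersion trend of all genes. In bulk, mutant 2 over mutant 1 had a median of 5.53 for the members and 0.999 for all genes. The recovery therefore does not describe the power for the members, and *Ttr* at a fold change of 48.1 was not called in bulk. DESeq2 1.42.0 and limma 3.58.1 served as alternatives, with other scaling, filters, pseudocounts and replicates left out. Intervals are 95%, and a count of 0 was read as up to 3 counts.

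The members and all companion lists were chosen with earlier results of these data known. Named genes were all 35 members, the 3 most abundant genes and any called gene of each companion list (some of these are not reported here), and genes outside the members by fixed rules on bulk rise, specificity for choroid plexus nuclei and similarity of bulk profile. Gene positions are from a GENCODE annotation of GRCm38, and promoters from RefSeq, where 7 members had none. Replicate numbers were not used as a pairing.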

Additional observations from a re-analysis of the deposited data

How the results depend on the processing

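Of the bulk members 0 were called higher with edgeR as reported, 28 with no filter on low counts (0.633% of 31735 genes were) and 19 with DESeq2, and 0 to 33 with a library left out in turn (33 without mutant 1, 10 without mutant 2). The remaining library of a genotype was then assumed to vary like the other genotype. No alternative called a member lower. The median log2 fold change was 1.53 to 3.90 with a library left out, and 2.80 with the replicate block. Over the libraries left out, the bulk log2 fold change ranged from -0.32 to 0.93 for *Tmem72*, from -0.075 to 2.40 for *Igf2*, from -0.51 to 2.19 for *Slc13a4* and from -0.98 to 0.35 for *Slc29a4*, negative without mutant 2 for the first 3 and positive without mutant 1 for the last. With RLE, library totals, limma and a fold threshold of 2, 0 members were called in bulk. Over all bulk genes, 4 were called higher and 41 lower as reported, 6 and 76 with a fold threshold of 2, 2 and 23 with limma on log2(TPM + 1), 69 and 56 with DESeq2, 201 and 112 with no filter, 2 and 24 with the replicate block, and 0 to 248 and 0 to 147 with a library left out.

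In the snRNAseq sums, DESeq2 called 3 members higher and 1 lower (0.583% and 0.797% of all genes). The replicate block also called 3 higher and 1 lower (1.08% and 1.07%). The same-number correlation was 0.086 in bulk and 0.534 in snRNAseq, with only 2 pairs each, so the numbers were not taken as a pairing. In bulk the numbers also split the libraries by *Xist* and *Ddx3y*, so the replicate block there is a block for that split too. The bulk calls of *Dynlrb2* and *Slc22a6* are given without it. The median log2 fold change ranged from -0.30 (without mutant 2) to 1.32. *Ttr* was at 0.96 without choroid plexus nuclei, 1.32 without the 5% of nuclei with the most UMIs, and -6.12 to 3.48 with a library left out. Within types, members called were 1 with at least 50 nuclei (0.195% of all gene tests), 9 with the replicate block (1.04%), 17 without mutant 1 (0.492%), 2 without mutant 2, both lower (0.151%), 11 without control 1 (0.496%) and 7 without control 2 (1.46%), and *Ttr* in microglia ranged from -6.89 to 4.60. The median choroid plexus share of member UMIs was 73.0% with CA1 subtracted, and the median share of choroid plexus nuclei with a UMI was 67.4%, or 22.3% when thinned. The cause of these changes was not tested. With 2 mice per genotype and 9 choroid plexus nuclei among the controls, levels in choroid plexus nuclei rest on a single library per genotype.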

Other observations

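Choroid plexus nuclei had further strongly enriched genes outside the 35. Genes were ranked by the ratio of CPM in choroid plexus nuclei (all libraries summed) to the highest other type, with 1 CPM added to both. Among the 4479 genes ranked, members held 9 of the top 20 places and 12 of the top 50. Choroid plexus nuclei came from mutant 2 (184) and control 1 (9) only, while the other types pooled all 4 libraries. For *Ttr* the ratio was 83.9 summed. As a plain ratio of CPM, with nothing added, it was 27.8 in mutant 2 and 701 in control 1, so it varied by library. With 1 CPM added, the non-members with the highest ratios were *4833427G06Rik* (98.3), *Defb9* (86.0), *Slc16a8* (71.0), *Drc7* (69.6) and *Olfr1507* (54.9). Next came *Lmx1a* (50.1), *2900040C04Rik* (46.6), *Ttc21a* (45.1), *Gm49156* (41.8) and *Gmnc* (37.5). The added CPM affects these values and their order. *Lmx1a*, a LIM homeodomain factor gene of the embryonic roof plate, measured 1.21 and 4.50 CPM in bulk mutants 1 and 2 and 0.124 and 0.238 CPM in the controls (log2 fold change 3.95, SE 0.772, edgeR FDR 0.0969). *Slc16a8*, a lactate transporter gene, measured 0.391, 5.98, 0.337 and 0.447 CPM, with mutant 1 between the controls. *Drc7*, a ciliary dynein regulatory gene, measured 7.37, 25.3, 3.33 and 2.26 CPM. *Gmnc*, which encodes a regulator of multiciliated cells, measured 1.89, 3.32, 4.50 and 3.90 CPM, both mutants below both controls.

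The bulk genes whose profile over the 4 libraries was closest to the members' median were *Sfrp5* (root mean square difference 0.093 on the log2 scale), *Rbm47* (0.166), *Lbp* (0.171), *Col4a3* (0.220) and *Tgtp1* (0.226), over 4 libraries. *Sfrp5*, a secreted Wnt antagonist gene, measured 0.612 and 3.51 CPM in mutants 1 and 2 and 0.248 and 0.164 CPM in controls 1 and 2. *Lbp*, which encodes lipopolysaccharide-binding protein, measured 10.4, 48.3, 4.70 and 2.73 CPM.

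Among the largest positive bulk log2 fold changes outside the members were *Mfrp*, a frizzled-related membrane protein gene, at 3.65, 60.1, 1.06 and 0.879 CPM (log2 fold change 5.04, SE 1.36, edgeR FDR 0.154), *Inmt*, *Steap1* and *Tmprss11a*. The rest were pseudogenes or gene models, *Rpl23a-ps3*, *RP24-155C13.8*, *Gm14493*, *Rpl14-ps1*, *Gm8226* and *Pgk1-rs7*, whose reads may be shared with near-identical copies and whose levels are uncertain. The first 4 of these had no counts in either control. *Rpl23a-ps3* measured 0.459 and 17.7 CPM in mutants 1 and 2, *RP24-155C13.8* measured 5.71 and 1.71 CPM, *Gm14493* measured 1.14 and 1.57 CPM (edgeR FDR 0.0282), and *Rpl14-ps1* measured 1.21 and 0.553 CPM. The mutants differed 38.6-fold for *Rpl23a-ps3* (edgeR FDR 0.192).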
